A study of Mus musculus with 4 samples.

Results

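The transcripts described here encode digestive enzymes of the exocrine pancreas, read in liver. The list named 10 genes, Prss2, Ctrb1, Ctrl, Cela1, Cela3b, Cpa1, Cpb1, Pnlip, Clps and Pnliprp1, and members were all probe sets whose annotation gave 1 of these as its only symbol. This found 16 probe sets for 9 genes, of 22626 probe sets and 12393 singly named genes in all, while Pnlip, pancreatic lipase itself, matched none by this rule, so its signal was not analysed here. The genes were selected on their signals in these same 4 arrays, so their levels are a description and carry no test.

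All 4 samples formed 1 group, ABCA1-transgenic liver, with 1 array for each of 4 biological replicates, called mouse 1 to mouse 4 after the number in the sample titles. The mice were C57BL/6 males of 5 to 6 months on the NIH36 diet. The sample descriptions give the LDL receptor background as +/- and the series title gives it as -/-, and all 4 mice share whichever holds. The planned wild-type arm was not analysed here. The labels name neither the promoter of the transgene nor how the liver pieces were cut.

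Acinar cells of the exocrine pancreas make digestive enzymes, mostly as inactive precursors called zymogens, and release them through ducts into the duodenum. Trypsin starts the activation of the other zymogens, chymotrypsins and elastases cut inside proteins, carboxypeptidases trim their ends, and lipases with their cofactor colipase split dietary fat. Hepatocytes are not a known main source of these enzymes. In acinar cells the genes are switched on together by the PTF1 complex, whose DNA site joins an E-box to a TTTCCC-type element. In bulk tissue, fewer cells of a type and less RNA per cell cannot be told apart.

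Because PTF1 has a known DNA site, the 200 bases before the RefSeq gene start are shown for 5 of the genes. Whether PTF1 has a part in the pattern between the mice was not tested. Cela1 varied least between the mice, and Cela3b, Prss2, Ctrl and Cpa1 each had a probe set with over 16-fold between the highest and lowest mouse. The windows are from RefSeq on GRCm38.p6, at chr15:100687921-100688120, minus strand, for Cela1, chr4:137430521-137430720, minus strand, for Cela3b, chr6:41521576-41521775, plus strand, for Prss2, chr8:105933863-105934062, minus strand, for Ctrl and chr6:30639018-30639217, plus strand, for Cpa1. Capitals mark CACCTG and TTTCCC on either strand (CAGGTG and GGGAAA on the other), and TATAAA where it begins from -36 to -24.
Cela1: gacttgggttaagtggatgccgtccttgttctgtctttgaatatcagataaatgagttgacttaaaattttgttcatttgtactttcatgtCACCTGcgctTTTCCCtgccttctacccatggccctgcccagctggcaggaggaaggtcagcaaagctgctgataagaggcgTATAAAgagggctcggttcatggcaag
Cela3b: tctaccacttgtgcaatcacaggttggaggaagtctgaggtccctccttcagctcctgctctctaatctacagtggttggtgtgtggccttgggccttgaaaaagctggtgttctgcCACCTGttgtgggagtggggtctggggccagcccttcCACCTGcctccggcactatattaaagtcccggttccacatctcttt
Prss2: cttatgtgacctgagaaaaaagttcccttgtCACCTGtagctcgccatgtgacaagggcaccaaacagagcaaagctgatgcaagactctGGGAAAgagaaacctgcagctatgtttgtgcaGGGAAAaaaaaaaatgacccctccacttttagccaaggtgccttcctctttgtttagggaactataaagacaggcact
Ctrl: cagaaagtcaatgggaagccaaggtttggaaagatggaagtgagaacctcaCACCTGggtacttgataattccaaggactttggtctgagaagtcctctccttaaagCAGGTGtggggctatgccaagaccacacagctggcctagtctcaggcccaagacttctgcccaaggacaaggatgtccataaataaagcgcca
Cpa1: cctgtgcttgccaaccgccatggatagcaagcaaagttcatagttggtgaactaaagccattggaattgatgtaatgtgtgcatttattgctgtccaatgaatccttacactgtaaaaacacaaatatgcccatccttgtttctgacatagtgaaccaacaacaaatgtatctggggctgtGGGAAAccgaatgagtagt

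In the table's windows of 250 bases before to 50 after the start, which held 9 of the 10 listed genes, CACCTG lay in 5 of 9 and in 20.2% of all 32851 windows. TTTCCC lay in 4 of 9 and in 25.2% of windows. Both lay somewhere in the window in 2 of 9, Cela1 and Prss2, against 4.86% of windows, and within 30 bases of each other in 1 of 9, Cela1, at -109 and -99, against 1.03%. Prss2 had CACCTG at -169 and TTTCCC, on the other strand, at -110 and -78. Cela3b had CACCTG at -83 and -46, and Ctrl had it at -149 and, on the other strand, at -93. TATAAA on the gene's strand began between -36 and -24 in 2 of 9 genes, Cela1 and Pnlip, and in 1.8% of windows. No 2 of these matches overlapped. A match is a description of these letters and not of a bound site.

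Mouse 2 held the highest signal on 15 of 16 member probe sets. Over the whole array, 29.5% of probe sets were highest in mouse 2. It led the next mouse by at least 2-fold on 9 of 16, against 2.1% of all probe sets. Mouse 4 was second to it on 10 of 16, against 7.25%. Mice 2 and 4 were both at least 2-fold above mice 1 and 3 on 9 of 16, covering 6 genes, against 0.871%. The highest and lowest mouse differed by at least 16-fold on 9 of 16, against 1.14%. The genes were picked with this pattern in view, so these shares describe it and nothing is read from them.

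**Figure D1:**
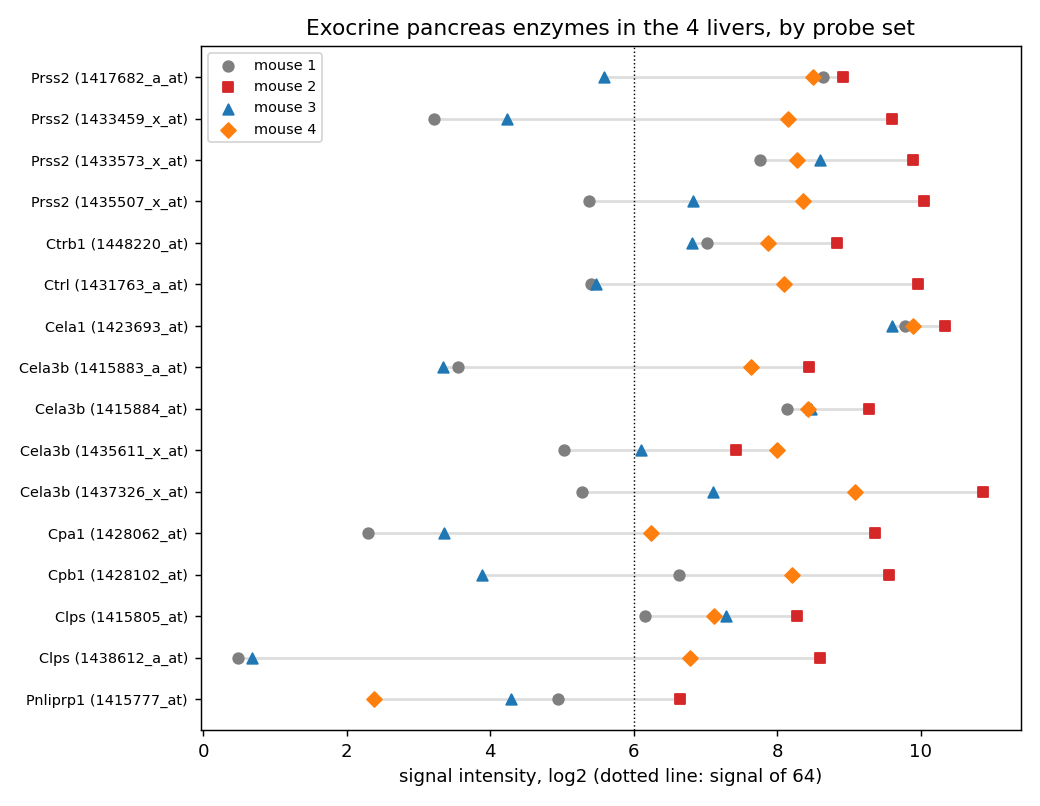
Signal intensity (log2, horizontal axis) of the 16 probe sets of 9 exocrine pancreas genes in mice 1 to 4, with 1 point per mouse and a line from the lowest to the highest mouse. Red squares, mouse 2, lie farthest right on 15 of 16 rows, and on most rows orange diamonds, mouse 4, come next.

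Mice 1 to 4 had median signals over the 16 probe sets of 42, 639.7, 58.2 and 279. Signals are linear intensities on arrays whose overall medians were close, at 278, 302, 305 and 267. In mouse 2, 14 of 16 were at 256 or more and 0 of 16 under 64. In mouse 4, 9 of 16 were at 256 or more, and in mice 1 and 3, 3 of 16 each. Every array median was above 256, so most probe sets of the array reached it in each mouse. The 9 of 16 in mouse 4 are therefore not read as raised. Shares of all probe sets under 64 were not computed. Mice 1 and 3 were both under 64 on 6 of 16. No detection calls were used, so whether such low signals were above background is unknown. The lowest mouse was under 64 on 11 of 16, and folds against it rest on such values. With signals under 64 raised to 64, the lead of mouse 2 over the mean of the other mice fell from 5.95 to 2.34 log2 for Clps on 1438612_a_at and from 5.40 to 3.28 for Cpa1. It fell from 4.40 to 2.88 for Prss2 on 1433459_x_at and from 3.61 to 1.90 for Cela3b on 1415883_a_at.

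Prss2, anionic trypsin, the protease that activates the other zymogens, was read by 4 probe sets. On 1433459_x_at it measured 9.3, 776, 18.8 and 284 in mice 1 to 4. On 1435507_x_at it measured 41.7, 1056, 114 and 328. Both put mouse 2 first, mouse 4 second and mice 1 and 3 far below, with 83.4-fold and 25.3-fold between highest and lowest. The other pair placed the mice differently. On 1433573_x_at the signals were 216, 946, 385 and 310.5 in mice 1 to 4, so mouse 2 stood alone and mouse 4 lay below mouse 3. On 1417682_a_at they were 397, 482, 47.9 and 362.5, so mouse 3 stood alone below the rest. By the array maker's naming, probe sets that end in _x_at hold probes that match other transcripts too, and trypsins form a large family of close copies, so the split of signal between Prss2 and its relatives is uncertain.

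Chymotrypsins cut after aromatic residues. Ctrl, chymotrypsin-like, measured 42.3, 995.5, 44.4 and 274 in mice 1 to 4. Ctrb1, chymotrypsinogen B1, measured 130.3, 458, 112 and 233. Both ordered mouse 2 over mouse 4 over mice 1 and 3, by 23.5-fold from end to end for Ctrl and 4.08-fold for Ctrb1. Ctrb1 started from higher signals in mice 1 and 3. Mouse 2 exceeded mouse 4 by 1.86 log2 for Ctrl and 0.97 for Ctrb1.

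Elastases cut after small residues, and Cela1 and Cela3b differed in how far the mice lay apart. Cela1 measured 878, 1286, 776 and 952 in mice 1 to 4. Mouse 2 was the highest again, yet the ends differed by 1.66-fold, the least among the 16 probe sets, at 9.90 ± 0.31 log2 (SD, n = 4). Cela3b was read by 4 probe sets. On 1437326_x_at it measured 38.8, 1869.6, 137 and 541, and on 1415883_a_at 11.7, 349, 10.1 and 198. Those put mouse 4 second, as on 2 of 4 Prss2 sets and for Ctrl. On 1435611_x_at it measured 32.6, 172.5, 68.4 and 255, the single member probe set with its highest signal in mouse 4. On 1415884_at it measured 282, 621, 353 and 345, a spread of 2.2-fold, with mice 1, 3 and 4 close together.

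Carboxypeptidases remove residues from the C-terminal end, Cpa1 aromatic or aliphatic ones and Cpb1 basic ones. Cpa1 measured 4.9, 659, 10.2 and 75.7 in mice 1 to 4. Cpb1 measured 98.9, 750.3, 14.8 and 294. Mouse 2 led in both and mouse 4 came second, while the lowest was mouse 1 for Cpa1 and mouse 3 for Cpb1. The step from mouse 4 to mouse 2 was 8.70-fold for Cpa1 and 2.55-fold for Cpb1.

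Clps is colipase, which anchors pancreatic lipase to fat droplets, and Pnliprp1 is a lipase relative with little known lipase activity. On 1438612_a_at Clps measured 1.4, 387.5, 1.6 and 110 in mice 1 to 4. This probe set had the largest SD between mice of all 22626, at 4.17 log2, and its signals in mice 1 and 3 compare with a lowest value of 0.1 anywhere in the file. On 1415805_at Clps measured 71.1, 310 in mouse 2, 156.5 in mouse 3 and 138 in mouse 4, a 4.36-fold spread. Pnliprp1 measured 30.9, 100.3, 19.6 and 5.2, so mouse 2 led and mouse 4 was the lowest, the single member probe set of that order. With signals under 64 raised to 64, the lead of mouse 2 for Pnliprp1 was 0.65 log2 in place of 2.77.

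**Figure D2:**
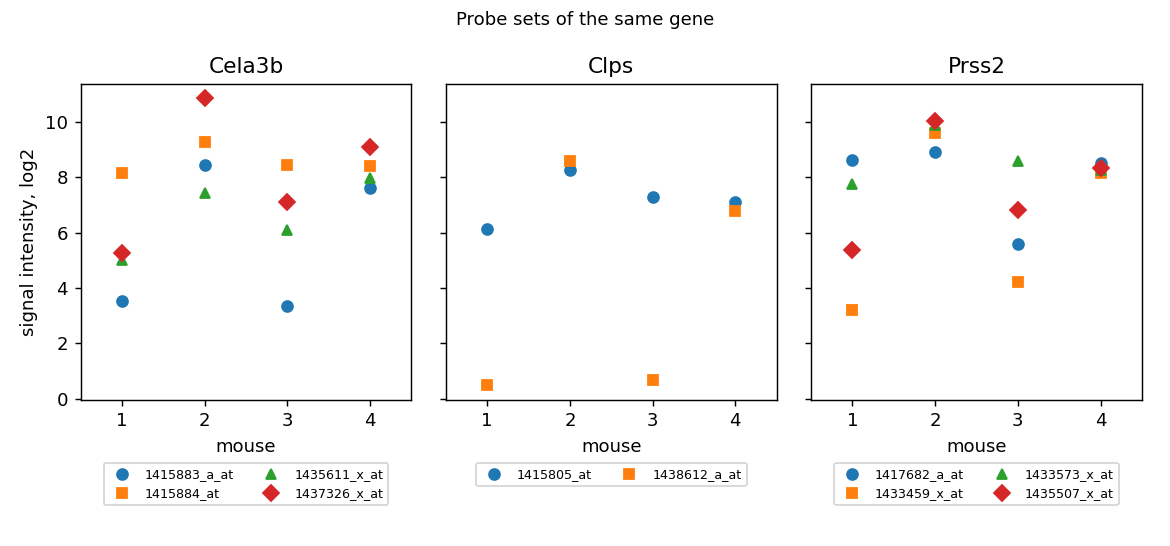
Signal intensity (log2, vertical axis) by mouse (horizontal axis) for the probe sets of Cela3b, Clps and Prss2, with 1 point per probe set and mouse and markers by probe set. Within each gene the probe sets lie closer together in mouse 4 than in mice 1 and 3, as for Clps, whose signals in mouse 1 were 1.4 and 71.1.

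Probe sets of 1 gene therefore differed more in size than in which mouse led. Mouse 2 led on 4 of 4 probe sets of Prss2, 2 of 2 of Clps and 3 of 4 of Cela3b. The fold from lowest to highest mouse ran from 4.38 to 83.4 for Prss2, from 4.36 to 276.8 for Clps and from 2.2 to 48.2 for Cela3b. In each of these 3 genes the probe set of highest mean log2 signal gave the smallest fold. Mouse 4 came second on 2 of 4 for Prss2, 1 of 2 for Clps and 2 of 4 for Cela3b. Of the 11 probe sets without an _x_at ending, 11 of 11 were highest in mouse 2.

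With 1 probe set per gene, the one of highest mean signal, mouse 2 lay above the mean of the other 3 mice in 9 of 9 genes, by a median of 1.68 log2 and a range of 0.57 to 5.40. The same median over all probe sets was 0.06. It was -0.81 in mouse 1, -0.40 in mouse 3 and -0.01 in mouse 4, against -0.04, 0.09 and -0.07 over all probe sets. The choice of probe set weighed on these sizes. Over all 16 probe sets the medians of mice 1 to 4 were -1.78, 2.98, -1.21 and 1.05. They also moved when a mouse was left out. Without mouse 1, the value of mouse 2 was 2.78 and that of mouse 3 was -1.54. Without mouse 2, mouse 1 was at -0.31, mouse 3 at -0.24 and mouse 4 at 0.39. Without mouse 3, mouse 1 was at -1.33, and without mouse 4, mouse 3 was at -1.12.

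Mouse 2 exceeded mouse 4 by a median of 1.35 log2 over the 9 genes, and the difference ran from 0.43 to 4.27 with an SD of 1.22 over genes. Over all probe sets the median was 0.11. Among the 9 probe sets with mice 2 and 4 both at least 2-fold above mice 1 and 3, the ratio of mouse 2 to mouse 4 had a median of 3.22 and ran from 0.678 for Cela3b on 1435611_x_at to 8.70 for Cpa1. The remaining 3 Cela3b sets gave ratios of 1.76, 1.80 and 3.45. The difference of 4.27 log2 belongs to Pnliprp1, which measured 5.2 in mouse 4. Mouse 3 was above mouse 1 on 10 of 16 member probe sets and below it on 6 of 16. The same share over all probe sets was not computed, so nothing is read from this count. Over the array, mouse 3 lay above the mean of the other 3 on 13268 of 22626 probe sets, and mouse 1 on 10328.

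**Figure D3:**
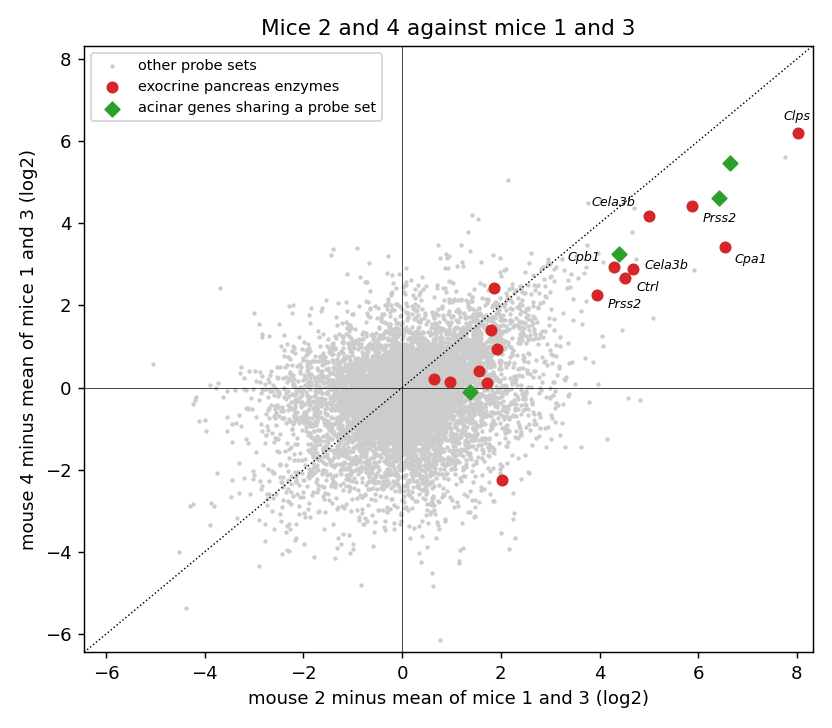
Difference of mouse 2 (horizontal axis) and of mouse 4 (vertical axis) from the mean of mice 1 and 3, in log2, for each probe set, with exocrine pancreas enzymes in red, acinar genes that share a probe set in green, other probe sets in grey and a dotted line where both differences are equal. A group of 8 red points lies far to the upper right and below the dotted line, Pnliprp1 lies below zero on the vertical axis, and the remaining 7 red points sit within the grey cloud.

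Other secretions of acinar cells were examined as a list of 36 symbols, of which 23 had a probe set, and each gene was read on its set of highest mean log2 signal. Of these, 16 of 23 were highest in mouse 2, against 29.5% of all probe sets, and 5 of 23 by at least 2-fold, against 2.1%. Among the other tissue lists given below, adipocyte had 5 of 7 highest in mouse 2, hepatocyte 9 of 14 and B cell 5 of 8. Islet had 3 of 11, salivary gland 2 of 8 and squamous epithelium 1 of 9. Leads of at least 2-fold were 2 of 7 for adipocyte, 2 of 10 each for stomach and intestine, and 0 for islet, muscle and hepatocyte. High shares were therefore not particular to acinar genes. In mouse 2 the median deviation of the other acinar secretions was 0.86 log2, and it was -0.30, -0.32 and -0.19 in mice 1, 3 and 4. Excess spread between mice was tested as an F ratio of each variance to a prior fitted by limma, called limma's test here. With Benjamini-Hochberg adjustment across the 22626 probe sets, it called 0 of 23 genes and 0% of the array. At an unadjusted p under 0.05 it gave 3 of 23, Dmbt1, Cela2a and Rnase1, and 3.71% of all probe sets.

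Cela2a, another elastase, measured 6.74, 9.80, 7.99 and 8.51 log2 in mice 1 to 4, the order most members had at the top. Sycn, syncollin of the zymogen granule, measured 6.04, 8.31, 6.73 and 7.31. Zg16, another granule protein, measured 5.80, 7.84, 5.03 and 6.66, and Pnliprp2, a lipase relative, 6.26, 7.57, 5.31 and 6.50. On these 4 probe sets mouse 2 was highest and mouse 4 second, and the second sets of Sycn and Pnliprp2 had the same order. Zg16 differed between its sets. Its 1434137_x_at measured 38.1, 799.5, 53.8 and 19.1, so mouse 2 led and mouse 4 was lowest, and its 1428358_at measured 44.1, 63.9, 59.9 and 64.2, with mice 2 to 4 close together. Gp2, a granule membrane protein, was also highest in mouse 2, at 7.70 log2, but measured 5.03 in mouse 4 against 6.52 in mouse 3. Rnase1, the pancreatic ribonuclease, measured 8.24, 9.84, 8.27 and 8.60.

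Some listed genes had other orders. Dmbt1, a mucin-like protein of several epithelia, measured 6.22, 11.00, 10.92 and 10.90 log2 in mice 1 to 4, so it was high in mouse 3, where the enzymes were low. When only probe sets with a mean level above 6.30 log2 were tested, Dmbt1 passed limma's test (adjusted p = 0.0135, with 0.0354% of probe sets called), against an adjusted p of 0.247 over all probe sets and 1.00 without mouse 1. Spink1, a trypsin inhibitor, was highest in mouse 4, at 6.43 log2 against 4.19 in mouse 2. Tff2, a trefoil peptide, was highest in mouse 3, at 6.52. Reg3b and Reg3g, lectins of injured pancreas and gut, had the smallest spreads, with 7.32 to 7.55 and 3.78 to 4.29 log2.

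Probe sets assigned to several genes of this kind gave the same order in 3 of 4 cases. The set of 5 pancreatic amylase genes, which digest starch, measured 24.8, 2976 in mouse 2, 35.5 in mouse 3 and 1306 in mouse 4 (limma adjusted p = 0.247 over all probe sets, 0.0135 among those with a mean level above 6.30 log2 and up to 0.983 under the other settings tried). The set shared by Cela3a and Cela3b measured 35.8, 1683, 10.9 and 481.5. The set shared by Try4 and Try5, both trypsins, measured 10.4, 203, 9 and 92.1. A set shared by Prss1, Prss3 and a pair of predicted genes stayed low, at 3.8, 10, 3.9 and 3.6. Mouse 2 led in all 4, and the step from mouse 4 to mouse 2 was 2.28-fold for the amylases, 3.50-fold for the elastases and 2.21-fold for the Try pair.

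A filter chosen after the values were seen asked for mouse 2 at 256 or more and at least 2-fold above every other mouse, with mice 2 and 4 both at least 2-fold above mice 1 and 3. It kept 14 probe sets, 0.0619% of the array. Of these, 7 were members, for Clps, Cpa1, Prss2 (both sets described first), Cpb1, Cela3b and Ctrl, and 2 were the amylase and the Cela3a and Cela3b sets. The remaining 5 were 2210010C04Rik, at 2.10, 10.63, 3.64 and 8.47 log2, Vcam1, Txn1, Slc15a2 and a set shared by Gpr137b and its pseudogene. So 9 of the 14 carried a symbol of the acinar lists used here, with a filter drawn from those same enzymes. The remaining 5 were set apart by symbol alone, so acinar genes under other names, such as a Rik symbol, may be among them.

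Regulators and machinery of acinar cells formed another list. Of 15 listed, 10 were measured, and 2 of 10 were highest in mouse 2, against 29.5% of all probe sets. limma called 0 of 10 over all probe sets and 0 of 10 at an unadjusted p under 0.05. The shares of all probe sets were 0% and 3.71%. Ptf1a, the subunit that gives PTF1 its name, measured 7.17, 7.37, 7.86 and 7.29 log2, and its partner Rbpjl 6.48, 6.52, 6.64 and 7.20. On these probe sets the highest and lowest mouse differed by less than 2-fold. On a second Rbpjl set of lower signal, 1421956_at, they differed by 2.71-fold, at 26.2, 24, 10.4 and 28.2. Bhlha15, a factor of secretory cell architecture, measured 7.94, 7.63, 8.10 and 7.32 log2, and on its second set, 1449233_at, signals of 143.5, 63.2, 187.3 and 57.2. Nr5a2, which liver also makes, had the smallest spread of the list, at 11.32 ± 0.11 log2 (SD, n = 4). Another of its 4 sets, 1449707_at, measured 54.1, 153.7, 38.6 and 51, with mouse 2 highest. Rab3d, a granule GTPase, ran from 7.89 to 9.04, and Cckar, the cholecystokinin receptor, from 2.38 to 4.89 with its highest value in mouse 2.

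By a likeness measure, the root mean square difference over the 4 mice between a probe set's centred log2 values and the median centred profile of the 9 genes, the 10 nearest other probe sets were for Slc32a1, Ercc6l2, Atp6v0a1, Cyp39a1, Sap30bp, Slc1a3, Rnase1, Tmem266, Cul9 and Muc5ac. Their distances ran from 0.11 to 0.15 log2, while those of the member probe sets themselves ran from 0.25 to 3.02. The distance grows with the size of the differences as well as with their order. Clps on 1438612_a_at, at 3.02, and Cpa1, at 2.08, were the farthest members, yet had mouse 2 first and mouse 4 second. A smaller distance is therefore not a closer match in order. The profile had 1.26 in mouse 2 and -0.61, -0.30 and -0.01 in mice 1, 3 and 4. Cyp39a1, an oxysterol hydroxylase of liver, measured 8.33, 9.93, 8.42 and 8.72. It and Rnase1 had mean levels above 8, and the other 8 had mean levels from 3.60 to 6.46.

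Markers of neighbouring tissues were read on the same arrays, with 1 probe set per gene. For skeletal muscle the median deviations of mice 1 to 4 were -2.98, 1.39, 0.73 and 1.37 log2, and 16 of 16 genes were lowest in mouse 1. The share of all probe sets lowest in mouse 1 was not computed. The summed signal of the muscle genes was 1271, 12430, 8741 and 11320 in mice 1 to 4. That of the exocrine enzymes was 1755, 6126, 1872 and 2627, of which Cela1, the member that varied least, gave 878, 1286, 776 and 952. Both the muscle sum and the enzyme sum ranked mouse 2 first, then mice 4, 3 and 1. In mouse 3 the muscle sum was closer to that of mouse 4 than to that of mouse 1, and the enzyme sum was closer to that of mouse 1. Mb, myoglobin, had 3.90, 10.42, 9.46 and 10.15 log2, and Ckmt2, a muscle creatine kinase, had 2.94, 8.76, 7.56 and 8.46.

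Duct markers had medians of -0.99, 0.57, 0.42 and 0.41 in mice 1 to 4, with Krt19 at 5.39, 8.41, 8.41 and 7.83 and Cftr at 1.89, 5.99, 6.07 and 5.71. The summed signal of the duct markers was 683, 1438, 1514 and 1337. Adipocyte medians were -0.23, 1.23, 0.04 and -0.47. Of the adipocyte genes, 5 of 7 were highest in mouse 2, against 29.5% of all probe sets, with Adipoq at 5.56, 7.61, 6.46 and 6.08 log2 and Slc2a4 at 7.41, 8.32, 8.03 and 5.64. The other 2 of 7 were lowest there, Cidec at 8.90, 7.82, 7.94 and 8.94 and Car3 at 15.57, 15.31, 15.50 and 15.49. The summed adipocyte signal, mostly Car3, was thus lowest in mouse 2, at 49954, 42465, 47394 and 47206. Islet markers were at -0.0019 in mouse 2 and 0.70 in mouse 3, with Ins2, insulin, at 6.13, 7.65, 7.24 and 5.83 and Sst, somatostatin, at 7.06, 7.42, 5.32 and 6.65. Pdx1, a factor of islet and early pancreas, was lowest in mouse 2, at 2.81, and Chga had the smallest spread of that list. Squamous epithelium was at 1.13 in mouse 3, where Krt4 measured 11.24 and Krt13 9.12.

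**Figure D4:**
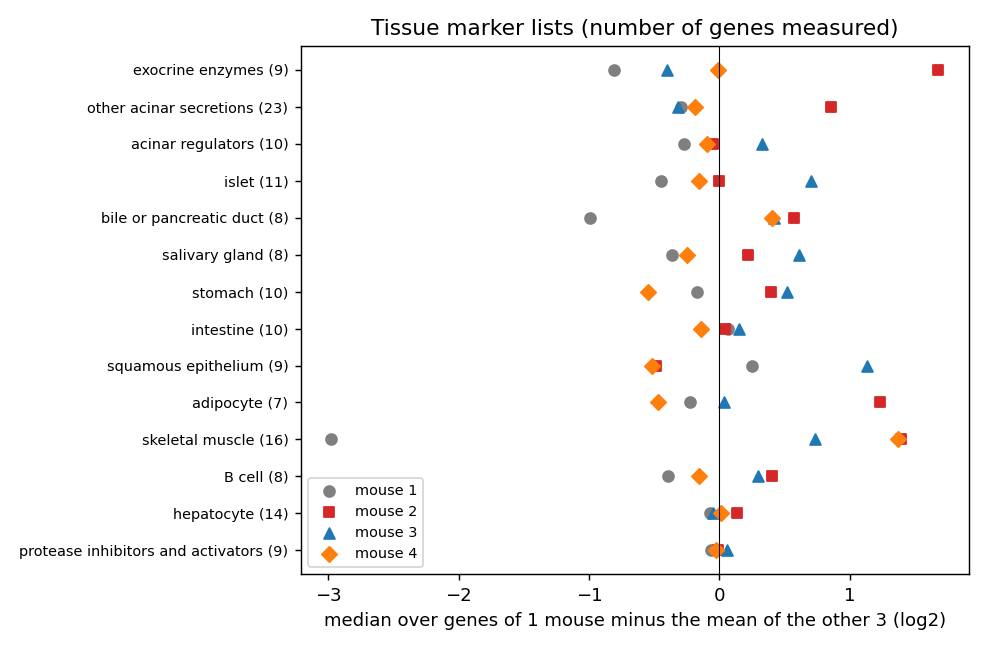
Median deviation of each mouse from the remaining 3, over the genes of each marker list (log2, horizontal axis), with the number of genes measured in brackets and 1 point per mouse. Exocrine enzymes, other acinar secretions and adipocyte markers have mouse 2 alone on the right, while skeletal muscle has mouse 1 alone on the left.

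Lists for stomach, intestine, salivary gland and B cells had medians from -0.55 to 0.61 in any mouse. Their widest genes were Gkn1 and Chia1, Cdx2 and Cdh17, Dcpp1 and Prol1, and Ms4a1 and Cd79b. Hepatocyte markers lay from -0.07 to 0.14, with Ttr at 15.34 to 15.72 log2 and Tat at 14.00 to 14.52, and a list of protease inhibitors, activators and receptors lay from -0.07 to 0.06, with Spint1 at 7.77 to 8.46 and Tmprss15, the enteropeptidase that activates trypsin, at 3.47 to 5.77. The 3-prime to 5-prime log2 ratio of the Gapdh control probe sets was 1.67, 1.94, 2.03 and 2.00 in mice 1 to 4. For the Actb controls it was 1.82, 1.88, 2.12 and 2.02, and for the Pcx controls 4.09, 4.79, 4.71 and 4.79. The 18S controls measured 9.95, 8.98, 8.75 and 8.79 log2. The part of muscle, duct and fat transcripts or of RNA quality in the enzymes' pattern was not tested. Abca1, the transgene's symbol, had SDs of 0.17 to 0.25 log2 on its 3 probe sets, and with no wild-type array this does not check the labels.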

How the data were processed

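Liver RNA of 4 mice was measured on 1 array each. Per the labels' protocols, livers were snap-frozen and 2 ug of RNA was amplified by the RiboAmp procedure, which starts at the poly(A) tail. The deposited values are linear signal intensities per probe set, from 0.1 to 79883, with a mean of 1000 on every array after trimming 2% at each end. The submitters' processing notes name RMA, with no version, but linear values down to 0.1 with 1 common trimmed mean are not its usual output, so the method behind the low signals is not settled. The samples are labelled biological replicates, without more detail, so spread may in part be technical.

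The 64 control probe sets were left out and log2 was taken of the intensities as they stood. Platform annotation gave 20380 probe sets 1 symbol, 691 several and 1555 none, and RefSeq gave the members' Entrez identifiers the same symbols. Members and lists were chosen with earlier results of these data known. Genes named are all members, the 8 widest and 2 narrowest other acinar secretions, the 3 widest and 1 narrowest regulators and islet genes, the 2 widest of each other list, the 10 nearest in likeness, shared probe sets with an acinar gene, and Abca1. Any others, and TATAAA, were chosen after values or promoters were seen.

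Excess spread was tested in R 4.3.3, as each variance over a robust prior that follows mean level, at an adjusted p of 0.05. limma 3.58.1 fitted the prior, and the upper-tail F probability was computed apart from the package's own tests. The script was tested on simulated data, where many probe sets given added spread were not called. A count of 0 past the test therefore does not show that excess spread was absent. The number of arrays limits the precision. Alternatives were other scalings, a floor of 64, a pseudocount of 16, probe set and level filters, other priors, other summaries over probe sets, and leaving out each mouse.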

Additional observations from a re-analysis of the deposited data

Results flagged for a closer look

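In 7 of the 71 probe sets named by the rule given above, 1 mouse lay apart from the other 3 by more than Dixon's 95% limit for 4 values. Chance gives about 1 in 20 for values not chosen by their spread. These were so chosen, so the count is a description and is not read against that rate. Probe sets described beyond that rule were not screened. Among the members this held for Prss2 on 1417682_a_at, where mouse 3 measured 5.58 log2 and the next mouse 8.50. Mouse 1 lay apart for Dmbt1, at 6.22, Cftr, at 1.89, Mb, at 3.90, and Tmprss15, at 3.47. Mouse 4 lay apart for Cd79b, at 6.23, and mouse 2 for the probe set shared by Prss1, Prss3 and predicted genes, at 3.32.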

How the results depend on the processing

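The lead of mouse 2 kept its sign under each alternative run, and 122 of 123 values for single member probe sets moved by less than their SD between mice. The value of mouse 4, -0.01, changed sign with quantile normalization (0.053), arrays shifted to the same median (0.13), no _s_at or _x_at probe sets (0.31), means over a gene's probe sets (1.15), the mean over genes (0.055) and, in a setting added after the data were seen, every probe set counted separately (1.05). Means over a gene's probe sets gave -1.83, 2.77 and -1.75 in mice 1, 2 and 3, and counting every probe set separately gave -1.78 and 2.98 in mice 1 and 2. Leaving out 1 mouse gave -1.33 to -0.31 in mouse 1, 1.64 to 2.78 in mouse 2, -1.54 to -0.24 in mouse 3 and -0.10 to 0.39 (without mouse 2) in mouse 4, and without mouse 2 its own values could not be computed. Counts past limma's test were 0 and became 6 probe sets above a mean level of 6.30 log2, where 16969 were tested. These were for Dmbt1, the 1 gene from the other acinar secretions, the shared amylase set, and the muscle genes Myh1, Tnnc2 and Mb. Unadjusted p from limma also fell there, from 4.94e-05 to 3.67e-06 for Dmbt1 and from 5.47e-05 to 3.97e-06 for the amylase set. Fewer tests were therefore not the only difference. No paired analysis was possible because there is 1 group. Low signals limit the folds of the 11 of 16 member probe sets whose lowest mouse was under 64, since no detection calls were used.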
